A study of Mus musculus with 4 samples.

Results

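The endothelial cells described here are 217 cell barcodes of mouse epidermal preparations, from the 1-week time point of a study that ablated ΔNp63. Of them, 93 came from the control library, without ablation, and 124 from the experimental library. They were selected on their own counts. A barcode was a member if it held at least 1000 UMIs, at most 15% of them from mitochondrial genes, and at least 3 UMIs over at least 2 of the 5 genes Pecam1, Cdh5, Egfl7, Emcn and Cldn5, with 0 UMIs of the leukocyte gene Ptprc. UMIs, or unique molecular identifiers, are tags by which each captured RNA molecule is counted once. The 2 libraries of that time point hold 43452 barcodes and the series 109216. The levels of the 5 gate genes chose the members, so they are given as a description only, and nothing rests on them.

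Endothelial cells line blood and lymphatic vessels. In skin they form arterioles, capillaries and venules in the dermis, and lymphatic vessels that drain it; the epidermis itself has no vessels. Post-capillary venules are where leukocytes leave the blood: the selectins Sele and Selp let them roll, and Icam1 and Vcam1 hold them. Capillaries exchange fluid and fatty acids through proteins such as Gpihbp1, Cd36 and Fabp4, and lymphatic endothelium is set by the transcription factor Prox1 and makes the chemokine Ccl21a.

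The study asked how ΔNp63, an isoform of the keratinocyte transcription factor p63, acts on stemness and inflammation in adult epidermis. Control mice were DNp63fl/fl and experimental mice DNp63fl/fl;K14-CreT2, so both carried the floxed allele and the experimental mice alone carried the tamoxifen-dependent Cre. The keratin 14 promoter that drives it is active in basal keratinocytes and not known for activity in endothelium. Both groups received 200 mg/kg tamoxifen by gavage on each of 5 days, both sexes were used, and ages ran from 2 to 17 months. The epidermis was scraped off after 0.25% trypsin, overnight at 4 °C or for 2 hours at 37 °C, and the 1-week libraries were made with the 10x Genomics 5′ kit (version 1.1). Each group is 1 library, and how many animals, which ages and which digestion went into it was not given. No difference below has a replicate check, no test was made, and every interval is a 95% interval for counting error only. The group and anything else that differed between the 2 preparations cannot be told apart, and neither can fewer cells of a vessel type and less RNA per cell.

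The control library held 15318 barcodes within the UMI and mitochondrial limits and the experimental library 18326, with median depths over the other barcodes of 3594 and 1615 UMIs. The lowest deposited UMI count was 500 in the control and 1059 in the experimental library. Members held a median of 3961 UMIs (range 1000 to 30178) in the control and 2534.5 (1062 to 37712) in the experimental library, and sums of 597868 and 562129 UMIs. Median mitochondrial shares were 1.59% and 2.11%. The libraries shared 661 barcode sequences, 0 of them a member in both. The same gate found 25 and 11 barcodes in the 1-day libraries, which were made with a 3′ kit and are not compared here.

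Pecam1, an adhesion protein of endothelial junctions, had 366 UMIs in 78 control members and 534 in 115 experimental members. Cdh5, the cadherin of those junctions, had 226 and 281 UMIs, and the junction protein Cldn5 had 197 and 181. Egfl7, a secreted vessel protein, had 160 and 201 UMIs, and the sialomucin Emcn 97 and 174. Just inside the threshold, at exactly 3 gate UMIs, lay 15 control and 39 experimental members, and just outside it, at 2 UMIs, 33 and 130 barcodes. Over 28 endothelial genes outside the gate, the median barcode held 6 and 4 UMIs just inside, 2 and 3 just outside, and 55 and 81.5 where the gate sum was above 10. Members near the threshold thus carried fewer endothelial UMIs than the others.

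Many members also carried RNA of other cell types. Keratins Krt5, Krt14, Krt15, Krt1 and Krt10 exceeded 1% of the UMIs in 22 control and 42 experimental members. At exactly 3 gate UMIs this was so for 9 of 15 and 32 of 39. At least 3 UMIs over at least 2 of 5 fibroblast genes were found in 9 and 3 members, and of 5 mural genes (of the pericytes and smooth muscle around vessels) in 5 and 11. Such barcodes were few and deep in the control library (median of 12008.5 UMIs for the keratin-bearing ones) and shallow in the experimental library (1763.5). Leaving out every barcode that met any of these limits kept 66 control and 72 experimental members, with median depths of 2969.5 and 3046.5 UMIs and sums of 265454 and 310486. These are called the gate-filtered subset below. Other RNA remained in it, since only these 3 limits were applied: it kept 486 of the 489 control UMIs of the globin Hbb-bs, 97 experimental UMIs of the wound keratin Krt6a and 60 of the smooth muscle gene Tagln. The control members of this subset held the smaller part of that library's endothelial UMIs, the experimental ones the larger part of theirs. Key values are therefore given for all members and for this subset, and the part of other-type RNA in the values over all members was not tested.

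**Figure D1:**
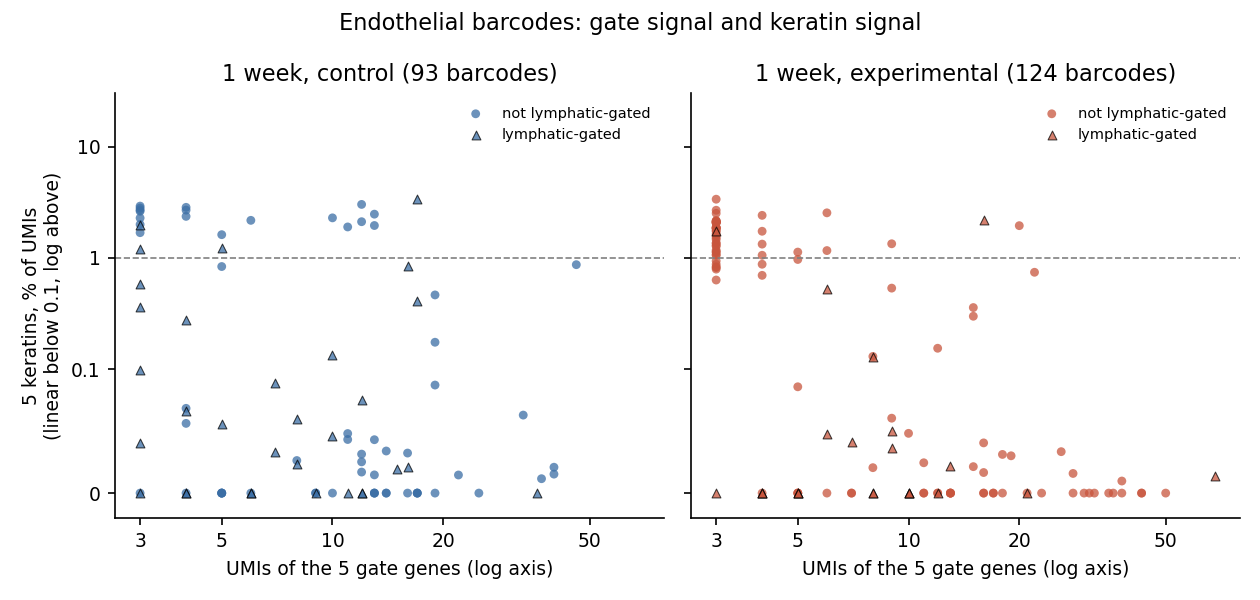
UMIs of the 5 gate genes (x, log axis) against the share of UMIs from 5 keratins (y, percent, linear below 0.1 and log above) for each endothelial barcode, with lymphatic-gated barcodes as outlined triangles and the 1% limit dashed. The 22 control and 42 experimental barcodes above the line lie mostly at low gate counts, with 32 experimental ones at exactly 3 UMIs.

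In sums over barcodes, genes known for endothelium, other than those of the gate, separated the members from the rest of each library. Of 4618 genes with enough UMIs in both libraries, 12.7% were at least 2-fold higher in members than in all other barcodes in both libraries, and 2.86% at least 2-fold lower in both. All 26 pan-endothelial genes with enough UMIs were higher, as were all 12 venous and all 10 lymphatic genes, 7 of 9 capillary genes and 6 of 8 arterial genes. By the lower of the 2 libraries' ratios, the leading genes were Ptprb, the phosphatase of endothelial junctions (log2 ratios of 7.32 in the control and 7.26 in the experimental library), and Kdr, the main VEGF receptor (7.95 and 7.22). The transcription factor Erg (7.99 and 7.16), the lymphatic neuropeptide Nts (7.10 and 7.22) and Sele (9.35 and 7.10) followed. Adgrf5 (7.53 and 7.07), Vwf, the adhesive protein of blood clotting (7.02 and 7.63), Mmrn1 (6.97 and 7.05), Ccl21a (6.96 and 7.03), Parvb (7.96 and 6.93) and the angiopoietin receptor Tek (6.93 and 6.98) came next. Hoxd10 (7.97 and 6.91), the arterial transcription factor Sox17 (8.18 and 6.91), Cd93 (7.99 and 6.85) and Selp (10.88 and 6.84) completed the first 15. Genes that did not choose the members thus carry the endothelial label for their sums, but not for each member. At exactly 3 gate UMIs, 2 of 15 control and 10 of 39 experimental members held 2 or fewer UMIs over the 28 pan-endothelial genes.

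In most of these 15 genes the ratio was smaller in the experimental library, and the other barcodes there held more endothelial UMIs. Selp stood at 0.294 CPM (UMIs scaled to a common total of 1000000) in the other control barcodes and at 10.3 CPM in the other experimental barcodes, and Plvap at 4.88 and 19.5. Over the 26 pan-endothelial genes the median log2 ratio between the other barcodes of the 2 libraries was 1.12. The part of this background in the members' levels was not tested; in the experimental members Selp stood at 1181 CPM and Plvap at 1841.

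The members included lymphatic-gated barcodes. A barcode was called lymphatic-gated when it held at least 2 UMIs over at least 2 of Prox1, Lyve1, Pdpn, Flt4, Ccl21a, Mmrn1 and Reln, a list shortened after the data were seen. This took 32 control and 24 experimental members, with median depths of 2565.5 and 2627.5 UMIs. Several genes outside that list divided the same way in both libraries, and others did not. Nts had 345 UMIs in lymphatic-gated and 0 in other control members, and 166 and 12 in the experimental ones. Fgl2 stood at 3197 against 38.3 CPM in the control and 5154 against 83.8 CPM in the experimental library. The flow-responsive factor Klf2 stood at 1446 against 266 CPM, and 3109 against 360. Ackr3, the scavenging receptor for Cxcl12, stood at 534 against 21.5 CPM, and 449 against 27.2. Kdr stood at 228 against 287 CPM in the control but at 591 against 207 in the experimental library, and Hmox1 at 195 against 124 but at 213 against 618. Car4 and Cxcl2 also divided in opposite ways, but nearly all of the 36 Cxcl2 UMIs of lymphatic-gated control members lay in 1 barcode. Of the 132 Car4 UMIs of all experimental members, 35 lay in 1 barcode.

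Several blood vessel genes were at or near 0 in the lymphatic-gated members. Flt1, the decoy receptor for VEGF, had 0 UMIs there in both libraries against 243 and 295 UMIs in the other members, log2 ratios of at most -5.12 and -4.12 when the count of 0 is set to 3. The water channel Aqp1 had 0 and 0 against 177 and 298 UMIs, and Ly6c1 0 and 0 against 646 and 1210. Fabp4, the fatty acid carrier of capillaries, stood at 195 against 5899 CPM (control) and at 260 against 4720 CPM (experimental). Selp was found in 12 control and 28 experimental members, and Ccl21a in 28 and 22; the 2 genes met in 0 and 1 barcodes. Selp and Sele met in 11 and 18 barcodes, and Selp and the capillary gene Gpihbp1 in 1 and 2. Gpihbp1 met Ccl21a more often, in 8 and 6 barcodes. Selp thus lay largely apart from Gpihbp1 and Ccl21a, while some barcodes held both of the latter. Among other venous genes, Ackr1, Vwf and Vcam1 were also low in lymphatic-gated members, but Lrg1 and Nr2f2 were not. Lrg1 stood at 523 against 586 CPM in lymphatic-gated and other control members, and at 981 against 938 in experimental ones. Nr2f2 was higher in lymphatic-gated members, at 167 against 45.5 CPM and 272 against 41.9.

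**Figure D2:**
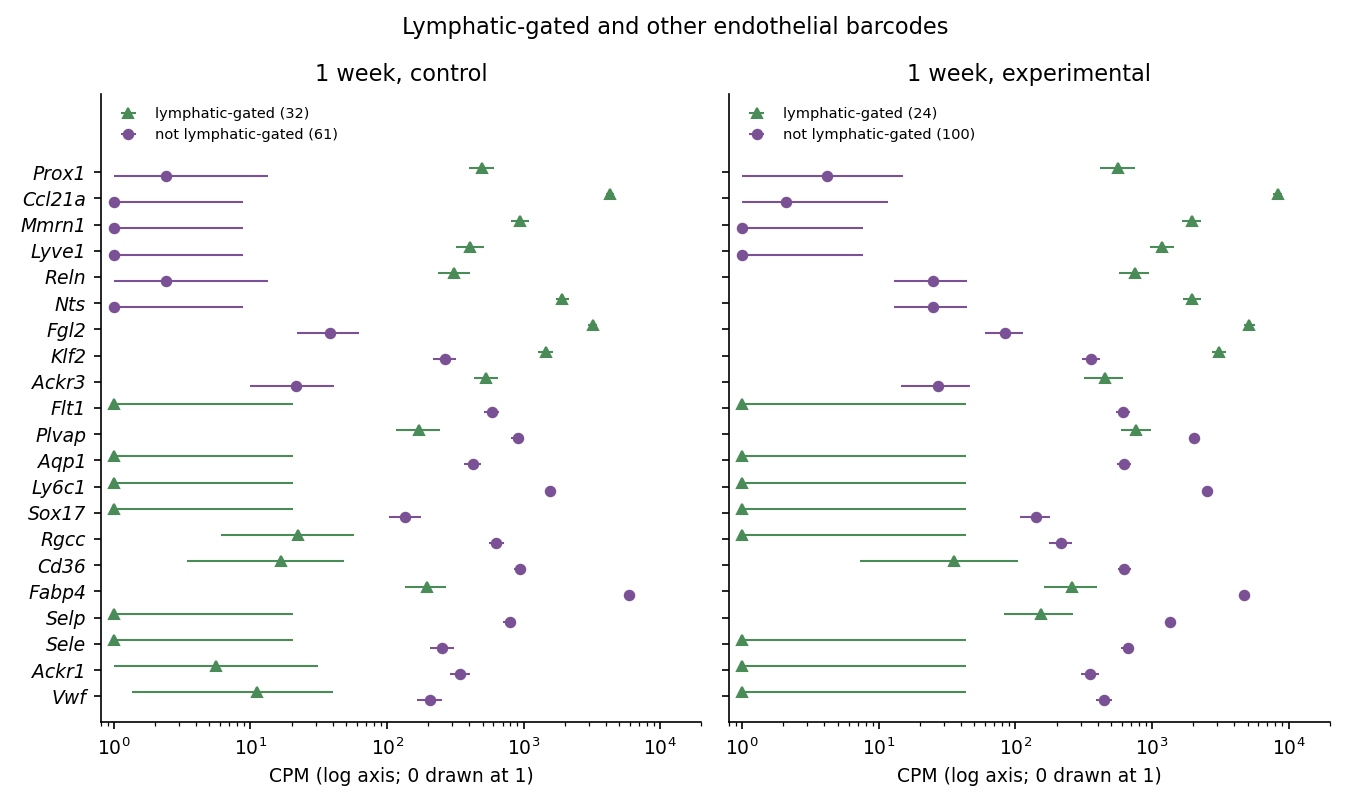
Level of 21 genes (x, CPM, log axis, with 0 drawn at 1) in lymphatic-gated members (triangles, 32 control and 24 experimental) and the other members (circles, 61 and 100), with exact Poisson intervals. Prox1 to Ackr3 lie to the right in lymphatic-gated barcodes and Flt1 to Vwf to the right in the others, in both libraries; Prox1, Ccl21a, Mmrn1, Lyve1 and Reln define the gate.

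Members made up 0.607% of control barcodes within the limits (93 of 15318, exact binomial interval 0.490 to 0.743%) and 0.677% of experimental ones (124 of 18326, 0.563 to 0.806%). The difference was 0.0695 percentage points, with a Newcombe interval of -0.105 to 0.240, so no difference was detectable at this depth. Over all deposited barcodes the shares were 0.371% and 0.673%, a difference of 0.302 points. With a minimum of 2000 UMIs the experimental share was 1.22%, a difference of 0.521 points. It turned direction with a gate sum of at least 5 (0.444% and 0.409%) and in the gate-filtered subset (0.431% and 0.393%). The difference in share therefore depended on the depth limit and on which barcodes were members.

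Vessel classes overlapped. On the full marker lists 87 of 93 control and 105 of 124 experimental members met 2 or more of the 4 gates, and on the shorter lists 40 and 60 did. Of the lymphatic-gated members on the shorter lists, 14 of 32 and 13 of 24 also met a blood class, and 7 control and 22 experimental members met no class. A class here is a range of counts and not a type. The lymphatic gate on the full list was met by 40.9% of control members (38 of 93, exact binomial interval 30.8 to 51.5%) and 26.6% of experimental members (33 of 124, 19.1 to 35.3%), a difference of -14.2 percentage points with an interval of -26.6 to -1.62. After each barcode was thinned to 1000 UMIs the shares were 34.4% and 20.2%, and with the shorter list 34.4% and 19.4%. With the shorter list and thinning together they were 26.9% and 17.7%, a difference of -9.14 points whose interval of -20.5 to 1.91 includes 0. The venous gate was met by 88.2% and 83.1% as counted, but by 50.5% and 63.7% after thinning, a difference of 13.2 points with an interval of -0.0727 to 25.9. It was met by 38.7% and 53.2% with the shorter list, and by 17.2% and 25% with that list and thinning. The capillary gate was met by 41.9% and 48.4% after thinning and the arterial gate by 21.5% and 20.2%. The intervals of both differences include 0. After thinning, 1.14% and 1.19% of the other barcodes met the lymphatic gate, 2.25% and 3.61% the venous and 2.22% and 7.80% the capillary gate. The lymphatic difference shrank with other choices of members: on the full list it was -11.9 points (-27.1 to 4.10) in the gate-filtered subset, -5.45 (-20.3 to 9.61) at a minimum of 2000 UMIs and -2.10 (-17.5 to 13.3) at a gate sum of at least 5. It thus kept its direction, but whether it passed counting error depended on which barcodes were members, and the venous difference turned direction with thinning. Intervals treat barcodes as independent, and 22 control and 42 experimental members were above 1% keratin.

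**Figure D3:**
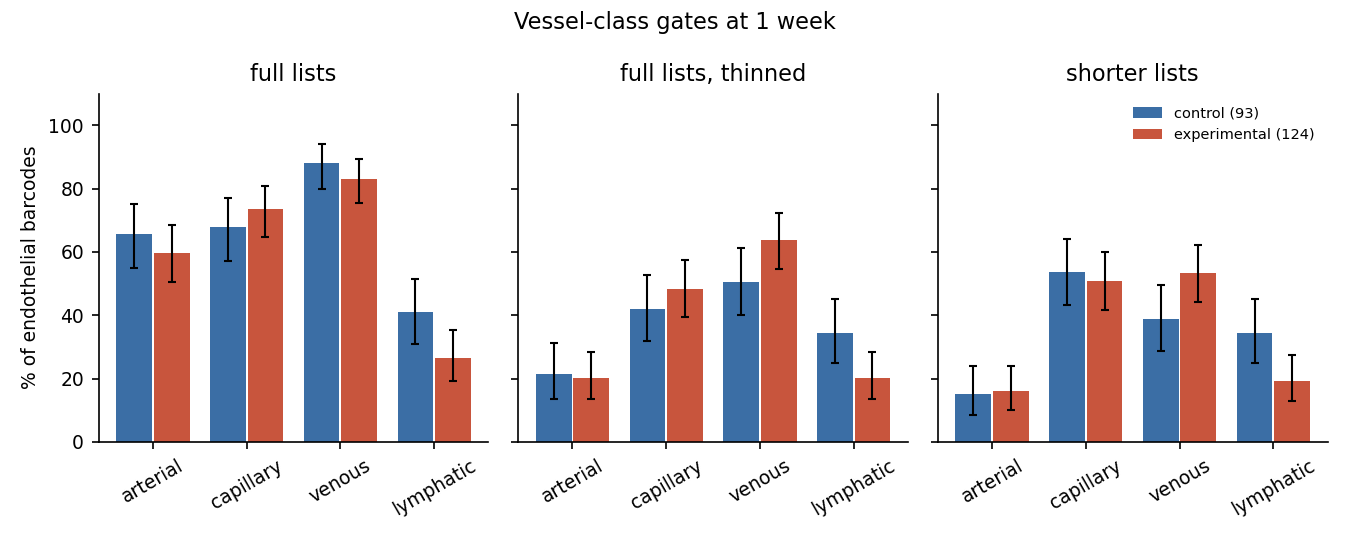
Share of endothelial barcodes meeting each vessel-class gate (y, percent) in the control (93) and experimental (124) library, with exact binomial intervals, for the full marker lists, the full lists after thinning to 1000 UMIs, and the shorter lists. The lymphatic bar is lower in the experimental library in each panel (40.9 and 26.6%, 34.4 and 20.2%, 34.4 and 19.4%), and the venous bar is higher only in the panels after thinning and with shorter lists.

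Between the libraries, 4544 genes had at least 40 UMIs over the members of both. Of these, 4.58% were at least 2-fold higher in experimental members and 4.75% at least 2-fold lower, and their median log2 ratio was 0.04. Of them 482 were at least 4-fold higher in members than in other barcodes in the library with the higher endothelial level, and 21% of these were at least 2-fold higher and 1.24% at least 2-fold lower, with a median of 0.52. A gene could enter these 482 through the library where it was high, so their shares are a description. When the 4-fold limit was asked of both libraries, 379 genes remained, with 77 at least 2-fold higher, 2 lower and a median of 0.49, beside 0.57 for the same genes in the other barcodes. In the gate-filtered subset the median of the 482 was 0.21, and of 2414 genes ranked in that subset 93 were at least 2-fold higher and 64 lower.

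Sums over members weigh deep barcodes more than shallow ones, and the mean of CPM per barcode, which weighs each barcode equally, gave smaller ratios for most endothelial lists. By that mean 1 of the 6 venous genes past 2-fold, 1 of the 4 pan-endothelial, 1 of the 4 adhesion and 0 of the 2 permeability genes stayed past it. Values by the mean are given beside many of the genes below. Counts of list genes past 2-fold below stand beside 4.58% higher and 4.75% lower over all genes. Over the 482 endothelium-enriched genes the shares were 21% and 1.24%.

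Many genes at both ends of the ranking are known from other cell types. The 12 highest held Akr1c18 (1 and 86 UMIs, 58 of them in 1 barcode, log2 ratio 6.52, and 3.35 without the top barcode of each library), the simple keratin Krt8 (0 and 81 UMIs, 60 of them in 1 barcode, at least 28.7-fold higher) and Nppb (0 and 59 UMIs, 55 in 1 barcode, at least 20.9-fold higher). Without the top barcode the bound for Nppb was 0.55 on the log2 scale. They also held the wound keratin Krt6a (3.87), the smooth muscle genes Acta2 (4.62), Myh11 (3.46) and Tagln (3.08), Rgs4 (4.29), complement C3 (3.44), Col6a2 (3.26), the integrin Itgb3 (3.18) and carbonic anhydrase Car4 (3.05). The 12 lowest held the globins Hbb-bs (489 and 1 UMIs, 389 of them in 1 control barcode), Hba-a1 (371 and 0) and Hba-a2 (240 and 0), the fibroblast proteoglycan Dcn (150 and 0, 127 in 1 barcode), and the keratins Krt1 (-4.88), Krt77 (-3.70) and Krt78 (-3.55). Crabp1 (-4.27, and -0.56 by the mean per barcode), Pyy (-3.91), Smoc2 (-3.61) and 2 genes with provisional names completed them, Gm94 (-3.68, but 1.77 in the gate-filtered subset and -0.96 by the mean per barcode) and Gm15987 (-3.65). Many of these extremes rested on barcodes left out of the gate-filtered subset. Within it, Krt8 kept 0 and 3 UMIs, Akr1c18 0 and 7, Nppb 0 and 1, and Dcn 2 and 0, while Krt1 (8 and 15 UMIs, 0.68) and Pyy (0 and 5) turned direction. Krt6a (3 and 97 UMIs), C3 (5 and 45), Itgb3 (5 and 43), Car4 (8 and 101) and Hbb-bs (486 and 0) kept theirs. Of the 15 keratinocyte genes, 10 were at least 2-fold lower in experimental members and their sum came to 31805 CPM against 16663 CPM. The list's direction was not settled: its median was -1.15 over all members but 0.31 by the mean per barcode, where 2 of the 10 stayed past 2-fold. More experimental than control members exceeded 1% keratin (42 and 22). In the gate-filtered subset the median was 0.12. That subset was cut on keratin, fibroblast and mural genes, Krt1, Dcn, Acta2, Myh11 and Tagln among them. Its values for such genes were therefore partly set in advance. All 6 mural genes with enough UMIs were higher, with sums of 246 and 1338 CPM, and 4 of them by the mean per barcode, and the 5 erythrocyte genes summed to 1908 and 1.78 CPM. The 4 wound keratins and alarmins with enough UMIs had a median log2 ratio of 2.37, and 2 of 3 fibroblast and 1 of 2 immune genes were at least 2-fold lower, the latter not by the mean. Schwann cell and melanocyte genes were near 0 in both (sums of 8.36 and 8.9 CPM). Xist, which marks cells of females, stood at 266 and 265 CPM, and the Y-linked Ddx3y at 46.8 and 26.7 CPM.

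Trp63 itself, the gene of p63, had 121 UMIs in 23 control members (202 CPM) and 24 UMIs in 13 experimental members (42.7 CPM), a log2 ratio of -2.24 (-2.94 to -1.60). In the other barcodes it stood at 429 and 141 CPM, above the members' level in both libraries. In the gate-filtered subset 24 and 4 UMIs remained. The counts do not separate ΔNp63 from the other isoforms.

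**Figure D4:**
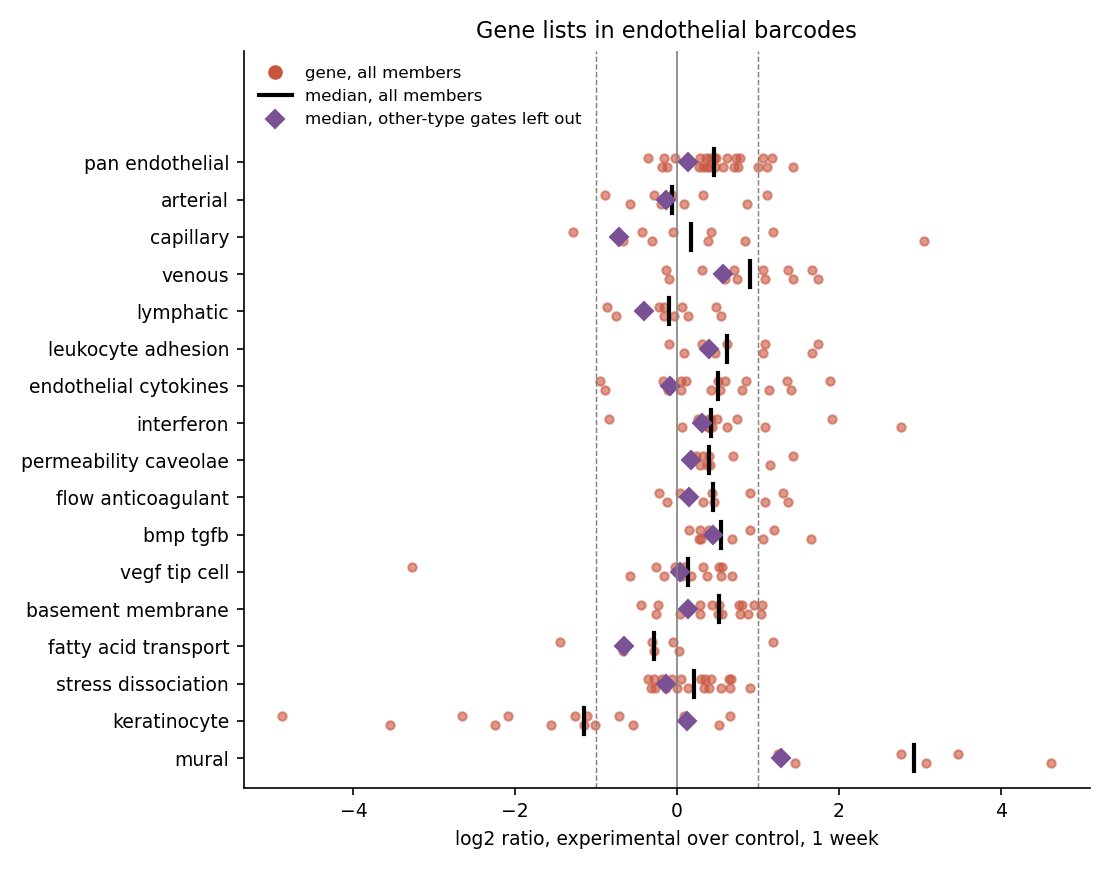
Log2 ratio of experimental over control (x) for each gene with at least 40 UMIs over the members, by list (y), with the median of all members (bar) and the median in the gate-filtered subset (diamond); dashed lines mark 2-fold. The venous median is 0.90 over all members and 0.57 in the subset, the capillary median 0.17 and -0.72, and the keratinocyte median -1.15 and 0.12. The subset was itself cut on keratin, fibroblast and mural genes, so its keratinocyte and mural values were partly set in advance.

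Among genes of leukocyte adhesion, Vcam1, Sele, Selp and Icam1 were at least 2-fold higher in experimental members, 4 of 9 with enough UMIs, and 0 were lower. The share was 4.58% over all genes and 21% over endothelium-enriched ones. The list's median log2 ratio was 0.62, against 0.04 over all genes, and 0.55 for the same list in the other barcodes. Vcam1 had 47 UMIs in 16 control members (78.6 CPM) and 148 UMIs in 12 experimental members (263 CPM), a log2 ratio of 1.74 (1.26 to 2.25). In the gate-filtered subset it was 1.62. Sele, E-selectin, had 106 UMIs in 12 control members (177 CPM) and 317 in 24 experimental members (564 CPM), a ratio of 1.67 (1.35 to 2.00), and 1.01 in the gate-filtered subset. Icam1 had 269 UMIs in 62 control members (450 CPM) and 529 in 72 experimental members (941 CPM), a ratio of 1.06 (0.85 to 1.28) and 0.84. Selp, P-selectin, had 332 UMIs in 12 control members (555 CPM) and 664 in 28 experimental members (1181 CPM), a ratio of 1.09 (0.90 to 1.28) and 0.50. All 4 were higher in the experimental library, but Sele, Selp and Vcam1 each rest on few barcodes, with 151 of the 664 Selp UMIs in 1 of them. Without the top barcode of each library the ratios were 1.49 for Sele, 1.05 for Selp and 1.71 for Vcam1. By the mean per barcode they were 1.14 for Vcam1, 0.70 for Icam1, 0.44 for Sele and 0.16 for Selp, so Vcam1 alone stayed past 2-fold. Ackr1, the chemokine receptor of venules (0.30), Icam2 (0.47), Cd47 (0.62), F11r (0.09) and Jam2 (-0.10) lay within 2-fold. In the gate-filtered subset Ackr1 turned direction (-0.43, -0.86 to -0.01).

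When lymphatic-gated members were also left out, 39 control and 53 experimental barcodes of that subset remained, called blood endothelial barcodes below, with 159652 and 248092 UMIs. In them Selp stood at 1560 and 1604 CPM, a log2 ratio of 0.04 (-0.19 to 0.28), and Sele at 0.60 (0.24 to 0.97). Icam1 stood at 0.65 (0.35 to 0.96) and Vcam1 at 1.21 (0.62 to 1.85). The level of Selp in these barcodes did not differ beyond counting error, while Vcam1 stayed past 2-fold. Ackr1 stood at -0.84 in them and Jam2 at -0.75. When the full lymphatic list was used to leave barcodes out, the direction turned for Selp (-0.43) and Sele (-0.12). After thinning, 12.9% of control and 18.5% of experimental members held a Selp UMI, against 0.0263% and 1.81% of the other barcodes.

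Of the 12 venous genes, 6 were at least 2-fold higher and 0 lower, beside 4.58% higher over all genes and 21% over endothelium-enriched ones. Their median was 0.90, beside 0.52 in the other barcodes, and 4 of the 6 are also in the adhesion list. Vwf had 88 UMIs in 29 control and 213 in 39 experimental members, a ratio of 1.36 (1.00 to 1.74), 1.1 in the gate-filtered subset and 0.73 in blood endothelial barcodes. The ratio by the mean per barcode was 0.04, so the difference depended on how barcodes were weighed. Tmem252 had 77 and 195 UMIs (1.43, and 0.85 by that mean) and Lbp 60 and 92 (0.71, and 0.29 by that mean). Lrg1, a secreted glycoprotein of activated venules, had 339 and 531 UMIs (0.74). It stood at 0.02 by that mean and at 0.20 (-0.05 to 0.46) in blood endothelial barcodes. Nr2f2, the transcription factor of venous identity, had 49 and 43 UMIs (-0.10), and Ephb4 56 and 48 (-0.13). These 2 genes thus lay within 2-fold over all members, with intervals that include 0. Lymphatic-gated members held 30 of the 49 control and 23 of the 43 experimental Nr2f2 UMIs, so its ratio is not that of venous barcodes alone. In blood endothelial barcodes Nr2f2 stood at -0.77, and by the mean per barcode over all members at -0.96.

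Plvap, which builds the diaphragms of endothelial pores and caveolae, had 408 UMIs in 55 control members (682 CPM) and 1035 UMIs in 80 experimental members (1841 CPM). The log2 ratio was 1.43 (1.27 to 1.60), 1.03 in the gate-filtered subset and 0.63 (0.44 to 0.83) in blood endothelial barcodes. In lymphatic-gated members it stood at 172 and 768 CPM (2.16, 1.52 to 2.82), with 31 and 65 UMIs. These members were not cut on other-type RNA, and 14 of 32 control and 13 of 24 experimental ones also met a blood class. Plvap and Ccl21a met in only 8 control and 7 experimental barcodes. Of the 9 genes of caveolae and permeability, 2 were at least 2-fold higher, Plvap and Cavin3 (1.15), beside 4.58% of all genes and 21% of endothelium-enriched ones. The coat genes Cav1 (0.41), Cav2 (0.24), Cavin1 (0.37) and Cavin2 (0.28) lay within 2-fold. The list had a median of 0.39 over all members and 0.17 in the subset. By the mean per barcode Plvap stood at 0.63 and Cavin3 at 0.55, and the list's median was -0.056.

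Capillary genes differed in both directions. Of 10 with enough UMIs, 2 were at least 2-fold higher and 1 lower over all members, and the median was 0.17, beside 2.02 in the other barcodes. In the gate-filtered subset the median was -0.72, with 1 gene of 8 higher and 2 lower. Rgcc, a cell cycle regulator abundant in capillaries, had 268 UMIs in 36 control members (448 CPM) and 103 in 28 experimental members (183 CPM), a ratio of -1.29 (-1.63 to -0.96). It was -2.43 in the gate-filtered subset and -2.82 (-3.30 to -2.38) in blood endothelial barcodes, where it stood at 1428 and 202 CPM. Gpihbp1, which holds lipoprotein lipase on the capillary wall, had 146 and 86 UMIs (-0.67), and stood at 695 and 230 CPM in blood endothelial barcodes (-1.6, -2.08 to -1.12). The fatty acid receptor Cd36 had 399 and 303 UMIs (-0.31), and 1923 and 726 CPM in blood endothelial barcodes (-1.41). Fabp4 had 2501 and 2276 UMIs (-0.05), and 12483 and 5994 CPM there (-1.06). Over all members the interval for Fabp4 includes 0, and in blood endothelial barcodes all 4 genes were at least 2-fold lower in the experimental library. By the mean per barcode over all members they stood at -1.89 for Rgcc, -0.91 for Gpihbp1, -0.81 for Cd36 and -0.44 for Fabp4.

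Car4, carbonic anhydrase on the capillary surface, went the other way, with 17 UMIs in 10 control members (28.4 CPM) and 132 in 25 experimental members (235 CPM), a ratio of 3.05 (2.31 to 3.87) and 2.09 (1.01 to 3.38) in blood endothelial barcodes. Of the 132 UMIs, 48 lay in lymphatic-gated members, against 0 in the control. In 1 experimental barcode lay 35 of the 132, and without the top barcodes the ratio was 2.88. By the mean per barcode Car4 stood at 1.82. Its UMIs met those of Gpihbp1 in 6 control and 11 experimental barcodes. Aqp1 had 177 and 298 UMIs (0.84), but 0.07 in blood endothelial barcodes. Cd300lg had 61 and 75 UMIs (0.39), but turned direction in those barcodes (-0.74) and by the mean per barcode (-0.36). Of 7 fatty acid transport genes, Lpl was at least 2-fold higher (1.19, but 0.53 by the mean per barcode and 0.01 in the gate-filtered subset) and Acsl1 lower (-1.44, but -0.10 by that mean and 1.23 in the subset, with 4 and 11 UMIs left), with a median of -0.29 and of -0.65 in the gate-filtered subset. For Fabp4 the other barcodes held 13 and 121 CPM, far below the members in both. For Gpihbp1 they held 0.419 and 1.82 CPM and for Cd36 3.57 and 13.4 CPM. For Rgcc they held 147 and 116 CPM, nearer to the members' 448 and 183 CPM. After thinning, 15.1% of control and 13.7% of experimental members held a Rgcc UMI, against 12.2% and 10.6% of the other barcodes.

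**Figure D5:**
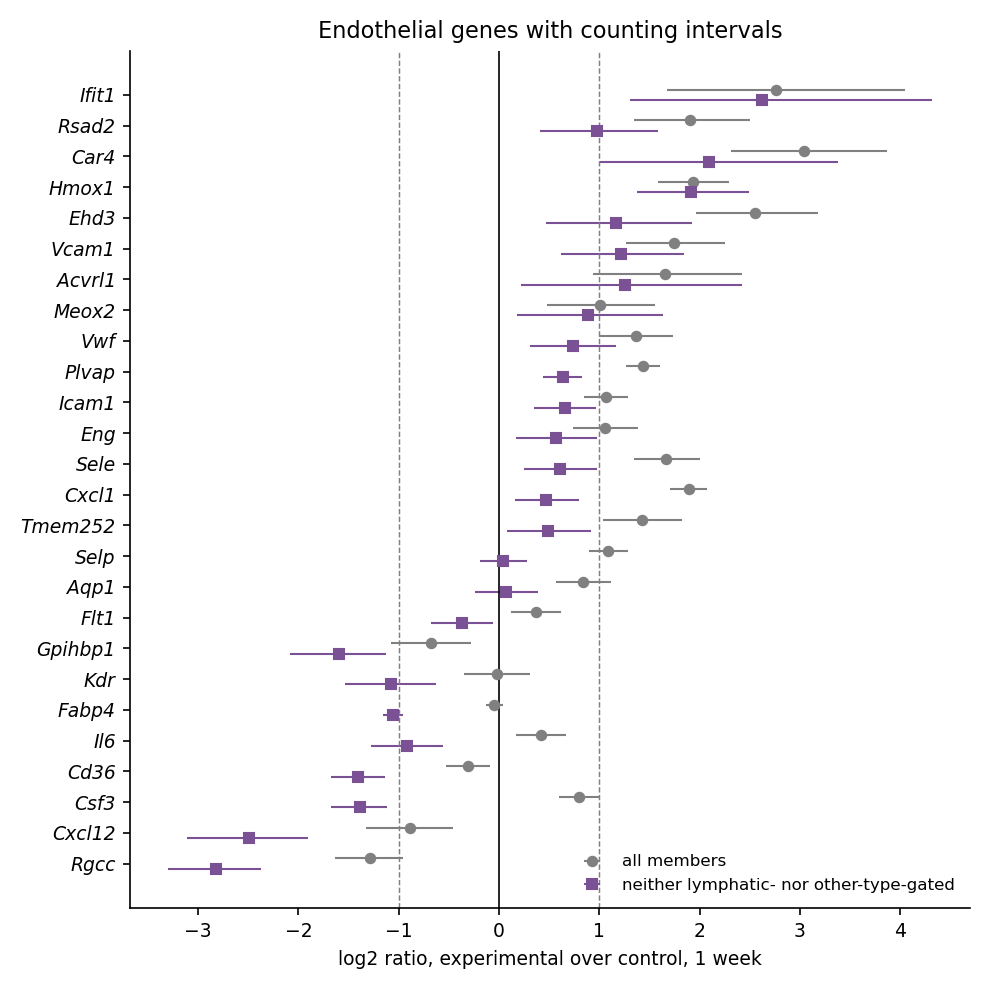
Log2 ratio of experimental over control (x) with counting intervals for 26 endothelial genes (y), over all members (circles, 93 and 124 barcodes) and over gate-filtered blood endothelial barcodes (squares, 39 and 53); dashed lines mark 2-fold. Ifit1, Rsad2, Car4, Hmox1, Ehd3 and Vcam1 lie to the right in both, and Rgcc, Cxcl12, Gpihbp1 and Cd36 lie to the left in both and farther left in blood endothelial barcodes.

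Endothelial cytokines and chemokines gave a mixed result. Of 17 genes, 4 were at least 2-fold higher and 0 lower over all members. The share higher was 4.58% over all genes and 21% over endothelium-enriched ones. The cytokine median was 0.51, beside 0.29 in the other barcodes, but in the gate-filtered subset it was -0.094. Cxcl1, which draws neutrophils, had 316 UMIs in 24 control members (529 CPM) and 1101 in 58 experimental members (1959 CPM). The ratio was 1.89 (1.71 to 2.07), 0.75 in the subset and 0.47 (0.16 to 0.80) in blood endothelial barcodes. By the mean per barcode it was 1.00. Of the Cxcl1 UMIs 90 and 339 came from 1 barcode in each library (1.88 without these). In the other barcodes Cxcl1 stood at 27.9 and 96.6 CPM (1.79), so it was also higher outside endothelium, by a similar ratio. Cxcl2, of the same family, had 74 and 179 UMIs (1.36, and 0.66 by the mean per barcode) but -1.28 in the gate-filtered subset, where 50 and 24 UMIs remained, and 0.04 in blood endothelial barcodes, with 15 and 24. Of its 74 control UMIs 35 came from 1 barcode, and of its 179 experimental ones 89. The neutrophil growth factor Csf3 had 329 and 539 UMIs (0.80), of which 165 and 205 came from 1 barcode in each library (1.14 without these), but -0.68 in the subset, and Il6 had 245 and 308 (0.42), but -0.45. Ccl2, which draws monocytes, had 170 and 227 UMIs (0.51), of which 109 and 94 came from 1 barcode in each library; the subset, with 28 and 87 UMIs, gave 1.41. The direction of Cxcl2, Csf3 and Il6 therefore depended on which barcodes were counted. For Cxcl2 and Csf3 the top control barcode stayed in the subset, while the top experimental one was left out of it. The receptor Il1r1 (1.41) and the ligand Cx3cl1 (1.13) were the remaining genes above 2-fold, at 0.31 and 1.64 by the mean per barcode.

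Cxcl12, the chemokine that retains leukocytes and progenitors, had 136 UMIs in 38 control members (227 CPM) and 69 in 32 experimental members (123 CPM), a ratio of -0.89 (-1.33 to -0.46). It was -2.03 in the gate-filtered subset and -2.49 (-3.11 to -1.90) in blood endothelial barcodes, where it stood at 702 and 125 CPM. Ackr3 had 105 and 51 UMIs (-0.95), and within lymphatic-gated members it stood at 534 and 449 CPM (-0.25, -0.83 to 0.31). Within lymphatic-gated members, which held most of its UMIs, Ackr3 thus did not differ beyond counting error.

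Cxcl1, Cxcl2 and Il6 have upstream stretches that hold the κB motif, searched as GGG and TTTCC with any 2 bases between them, on both strands of the 250 bases before the annotated start (RefSeq, build GRCm38.p6). Of 32851 such windows, 1.41% hold it. The stretches of these 3 cytokines are shown because they hold the motif, with matches in capitals and each sequence in the direction of its gene. They lie at chr5:90890995-90891244, chr5:90903649-90903898 and chr5:30012864-30013113, all on the plus strand.
Cxcl1: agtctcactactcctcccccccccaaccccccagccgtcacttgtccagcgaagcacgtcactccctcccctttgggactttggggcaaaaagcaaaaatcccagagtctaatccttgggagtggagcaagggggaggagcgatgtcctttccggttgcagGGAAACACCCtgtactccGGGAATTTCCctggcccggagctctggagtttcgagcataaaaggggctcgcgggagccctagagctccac
Cxcl2: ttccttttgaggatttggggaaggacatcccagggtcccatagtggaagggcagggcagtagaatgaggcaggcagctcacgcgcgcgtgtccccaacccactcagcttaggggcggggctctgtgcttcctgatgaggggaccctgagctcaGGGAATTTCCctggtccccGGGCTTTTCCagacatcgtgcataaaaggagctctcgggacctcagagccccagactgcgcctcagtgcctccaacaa
Il6: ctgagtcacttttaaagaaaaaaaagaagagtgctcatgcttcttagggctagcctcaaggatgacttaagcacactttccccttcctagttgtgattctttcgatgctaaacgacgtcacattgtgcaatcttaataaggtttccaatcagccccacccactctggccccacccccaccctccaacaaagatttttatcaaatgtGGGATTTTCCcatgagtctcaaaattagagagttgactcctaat
Cxcl1 holds 2 matches, of which 1 reads on the opposite strand, Cxcl2 holds 2 and Il6 holds 1. The windows of Sele, Selp and Icam1 hold 0, which says only that these letters are not in the 250 bases. A match is a description and not a binding site.

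Of 14 interferon-response genes with enough UMIs, 3 were at least 2-fold higher and 0 lower. The share higher was 4.58% over all genes and 21% over endothelium-enriched ones, the latter near that of this list. The median was 0.42 over all members, beside 0.58 for the list in the other barcodes, and 0.30 in the gate-filtered subset; as a mean of CPM per barcode the median was -0.076. Ifit1, which binds foreign RNA, had 8 UMIs in 6 control members (13.4 CPM) and 51 in 12 experimental members (90.7 CPM), a ratio of 2.76 (1.68 to 4.05), 2.80 in the gate-filtered subset and 2.63 in blood endothelial barcodes. Rsad2, the antiviral enzyme viperin, had 34 UMIs in 14 control members (56.9 CPM) and 120 in 20 experimental members (213 CPM), a ratio of 1.91 (1.35 to 2.50), 1.39 and 0.98. Gbp2, a guanylate-binding protein, had 44 and 88 UMIs (1.09). By the mean per barcode Rsad2 stood at 0.89 and Gbp2 at 0.72, and Ifit1 at 2.31. Isg15 (0.41), Ifitm3 (0.40), Ifitm2 (0.43), Irf1 (0.50) and Bst2 (0.07) lay within 2-fold. Ifit1 kept its direction in all 15 alternatives, between 2.31 and 2.82, but 18 of its 51 experimental UMIs came from 1 barcode. Ifit3, with 4 and 9 UMIs, was too sparse to be ranked.

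The promoters of Ifit1, Ifit3 and Rsad2 are shown because they hold the interferon-response motif, searched as GAAA and GAAA with any 2 bases between them, on both strands of the same window. It is found in 2.98% of windows, and none of the 6 windows printed here holds both motifs. The stretches lie at chr19:34640639-34640888 and chr19:34583279-34583528 on the plus strand and at chr12:26456453-26456702 on the minus strand, and the capitals mark matches read on the opposite strand.
Ifit1: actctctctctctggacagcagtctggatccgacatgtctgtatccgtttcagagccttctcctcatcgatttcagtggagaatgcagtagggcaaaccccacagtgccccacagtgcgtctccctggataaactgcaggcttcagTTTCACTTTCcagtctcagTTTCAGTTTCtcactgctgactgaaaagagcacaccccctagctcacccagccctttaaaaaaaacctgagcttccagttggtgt
Ifit3: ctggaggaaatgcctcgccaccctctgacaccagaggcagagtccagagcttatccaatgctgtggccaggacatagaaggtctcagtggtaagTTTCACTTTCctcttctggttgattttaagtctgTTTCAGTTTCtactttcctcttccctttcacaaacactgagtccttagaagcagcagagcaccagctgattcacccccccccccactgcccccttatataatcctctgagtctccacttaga
Rsad2: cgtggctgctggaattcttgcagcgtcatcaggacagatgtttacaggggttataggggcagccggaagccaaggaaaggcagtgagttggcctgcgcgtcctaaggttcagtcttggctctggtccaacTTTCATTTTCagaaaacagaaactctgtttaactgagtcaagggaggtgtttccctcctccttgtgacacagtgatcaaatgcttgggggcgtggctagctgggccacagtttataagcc
Ifit1 and Ifit3 hold 2 matches each and Rsad2 holds 1. Isg15, whose ratio was 0.41, holds 3, of which neighbouring ones overlap, and the 2 windows of Ifit2, of the same family, hold 0.

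Membership of the 482 genes depended in part on the ratio ranked, since Acta2, Ccl11, Myl9 and Myh11 met the 4-fold limit in the experimental library alone, and Pyy, Cxcl12 and the 3 globins in the control alone. Their 10 highest also held Ehd3, a membrane-trafficking protein (28 and 154 UMIs in 8 and 34 members, 2.55, and 1.17 in blood endothelial barcodes), and Itgb3 (6 and 51 UMIs in 5 and 21 members, 3.18, and 3.1), with Myl9 (2.77), Ccl11 (2.55) and Gm13889. Ehd3 stood at 1.48 and Itgb3 at 1.33 by the mean per barcode. Of their experimental UMIs, 45 of 154 and 18 of 51 lay in 1 barcode. Without the top barcodes the ratios were 2.57 and 3.15. Acta2 had 139 experimental UMIs in 8 members, and 0 in the gate-filtered subset, where Myh11 and Myl9 also had 0 and Ccl11 had 1. Acta2, Myh11 and Tagln were among the genes on which that subset was cut. Tagln kept 21 control and 60 experimental UMIs there (1.29). The 10 lowest held the 3 globins, Pyy, Dtx1 (29 and 11 UMIs, -1.31), Pkhd1l1 (37 and 15, -1.21), Ackr3, Cxcl12, Igfbp5 (-0.87) and Nts (-0.87). Within lymphatic-gated members Nts stood at 1918 and 1962 CPM (0.03, -0.24 to 0.30). Of genes that helped choose those barcodes, Prox1 stood at 495 and 567 CPM (0.20, -0.34 to 0.72), Ccl21a stood at 4275 and 8311 CPM (0.96), Mmrn1 at 940 and 1951 (1.05) and Lyve1, the hyaluronan receptor, at 406 and 1182 (1.54, 1.09 to 2.00). Acta2 had 85 UMIs and Tagln 74 in the 24 experimental lymphatic-gated members and 0 in the 32 control ones. Over all members the 10 lymphatic genes had a median of -0.10, with 0 past 2-fold. There the mean per barcode gave -0.59 for Ccl21a, -0.63 for Mmrn1 and -0.33 for Lyve1. In the gate-filtered subset they stood at -0.38, -0.21 and 0.23. Both sets include members that were not lymphatic-gated.

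Receptors of vessel growth lay mostly within 2-fold. Of 14 genes of VEGF signalling and tip cells, 0 were higher and 1 lower: Igfbp3 (-3.28), which stood at 846 and 67.1 CPM in the other barcodes and at 0.58 in the gate-filtered subset. Kdr had 161 UMIs in 52 control members and 149 in 50 experimental members (-0.02, -0.35 to 0.31), but stood at 614 and 290 CPM in blood endothelial barcodes (-1.08, -1.54 to -0.63). Flt1 had 243 and 295 UMIs (0.37), and -0.37 there. Of 7 Notch genes 0 passed 2-fold over all members, with a median of -0.44. The ligand Dll4 had 27 and 17 UMIs (-0.58), and 20 and 13 in the gate-filtered subset. In blood endothelial barcodes it was past 2-fold lower (-1.37). The 5 Tie and angiopoietin genes had a median of 0.27, with Tek at 0.40 and Tie1 at 0.27. By the mean per barcode all of these turned direction, with a median of -0.62, Tek at -0.68 and Tie1 at -0.21.

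Of 10 genes of BMP and TGF-β signalling, 3 were at least 2-fold higher and 0 lower, beside 4.58% higher over all genes and 21% over endothelium-enriched ones. Their median was 0.54 over all members and 0.44 in the gate-filtered subset. The receptor Acvrl1 (ALK1) had 22 UMIs in 20 control and 65 in 35 experimental members (1.65, 0.93 to 2.42), and 1.25 (0.22 to 2.42) in blood endothelial barcodes. Its co-receptor Eng, endoglin, had 122 UMIs in 52 and 239 in 57 members (1.06, 0.74 to 1.39), and 0.57 there. The target Id2 had 13 and 28 UMIs (1.20) and Id1 74 and 130 (0.90), while Id3 had 253 and 292 (0.30). Acvrl1 stood at 0.58, Eng at 0.39 and Id2 at 1.79 by the mean per barcode. Both receptors were higher over all members and in blood endothelial barcodes, while in lymphatic-gated members Acvrl1 had 9 and 4 UMIs (-0.08, -2.23 to 1.76).

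The counts in this paragraph stand beside 4.58% of all genes and 21% of endothelium-enriched ones at least 2-fold higher. Among 16 endothelial transcription factors, 2 were at least 2-fold higher: Meox1 (13 and 42 UMIs, 1.78) and Meox2 (46 and 87, 1.01). These stood at 1.45 and 0.88 in blood endothelial barcodes and at 1.36 and 0.43 by the mean per barcode. Sox17 (0.32), Sox18 (0.57), Fli1 (-0.17) and Erg (0.77) lay within 2-fold, and Foxc1 (-0.67) and Sox7 (-0.36) were the lowest of the list. In blood endothelial barcodes Sox7 was past 2-fold lower (-1.64). Sox17 (-0.45) and Sox18 (-0.26) turned direction there, while Erg (0.27) and Fli1 (-0.64) kept theirs. Of 10 genes of flow response and anticoagulation, Vwf, the protein C receptor Procr (100 and 233 UMIs, 101 of them in 1 experimental barcode, 1.31, and 0.87 without the top barcodes, but 0.05 in the gate-filtered subset) and Entpd1 (38 and 76, 1.09) were at least 2-fold higher, and 0 of the 3 by the mean per barcode (0.04, 0.59 and 0.45). Klf2 (0.32) and Klf4 (-0.23) were within 2-fold. Other pan-endothelial genes past 2-fold were Eng, Ecscr (79 and 160 UMIs, 1.11, and 1.14 in blood endothelial barcodes), Tspan7 (106 and 224, 1.17, and 0.56 by the mean per barcode) and Plvap, 4 of 26 with a median of 0.46 over all members, 0.13 in the gate-filtered subset and -0.20 in blood endothelial barcodes. As a mean of CPM per barcode their median was -0.16, with 1 of the 4, Ecscr, past 2-fold, so the direction of the list as a whole was not settled.

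Of 17 basement membrane genes 2 were at least 2-fold higher, Col4a2 (85 and 165 UMIs, 1.05) and Col15a1 (68 and 131, 1.03). The share higher was 4.58% over all genes and 21% over endothelium-enriched ones. The list's median was 0.51, and 0.14 in the gate-filtered subset, and Col4a1, the partner of Col4a2, stood at 0.28. Col4a2 stood at 0.20 and Col15a1 at 0.33 by the mean per barcode. None of 9 junction genes passed 2-fold in either direction (median -0.10). Of 9 arterial genes only the elastic fibre protein Fbln5 was past 2-fold (37 and 75 UMIs, 1.11, and 0.81 by the mean per barcode), with a median of -0.06. Of 11 hypoxia genes 2 were, Egln3 (16 and 49 UMIs, 1.70) and Hmox1, heme oxygenase 1. Hmox1 had 87 UMIs in 23 control members (146 CPM) and 313 in 61 experimental members (557 CPM), a ratio of 1.94 (1.59 to 2.30), 1.34 in the gate-filtered subset and 1.91 (1.37 to 2.49) in blood endothelial barcodes. In the other barcodes Hmox1 stood at 15 and 80.1 CPM and Egln3 at 44.7 and 244 CPM, so both were also higher outside endothelium.

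None of the 20 genes of dissociation stress passed 2-fold, with a median of 0.21 over all members and -0.14 in the gate-filtered subset; Fos stood at 0.41 and Hspa1a at 0.35. Of 9 cell cycle genes Mki67 (63 and 19 UMIs, -1.64) and Top2a (46 and 17, -1.35) were at least 2-fold lower, but 41 of the 63 and 32 of the 46 control UMIs came from 1 barcode each, and without the top barcodes the ratios were -0.43 and -0.75. Mki67 stood at -0.42 by the mean per barcode, and Top2a turned direction (0.51). Of 11 antigen presentation genes the class II genes H2-Aa (-1.28) and H2-Eb1 (-1.08), which stood at 265 and 252 CPM in the other control barcodes against 73.6 and 75.3 in members, were lower, at -0.91 and -0.18 by the mean per barcode, and the class I genes H2-K1 (-0.19), H2-D1 (-0.11) and B2m (-0.35) were within 2-fold.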

How the data were processed

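The values are UMI counts per gene and barcode, deposited by the authors as 10x matrices; Cell Ranger 5.0.1, Seurat and the build mm10 are named, with no role or order, in the submitters' processing notes. Both 1-week libraries were used (88903603 and 68191870 UMIs over 25039 and 18413 barcodes). The members and gene lists were chosen with earlier results of these data known. Counts were summed over members; CPM carry exact Poisson intervals, ratios conditional Clopper-Pearson intervals, shares exact binomial and their differences Newcombe intervals, all at 95% and for counting error only. With 1 library per group there was no test. A gene was ranked if both endothelial sums together held at least 40 UMIs (20 against other barcodes), gate genes left out; 2-fold was counted as a difference, and a count of 0 was set to 3. Vessel-class gates needed 2 UMIs over 2 genes. Named were the 12 highest and 12 lowest genes, the 10 highest and lowest of the endothelium-enriched ones, the 15 leading over other barcodes, and list genes. Scrublet's automatic threshold marked 0.0849% and 0.0218% of barcodes and was not used; a rate of 0.8% per 1000 barcodes marked 15 control and 6 experimental members, left out as an alternative. Alternatives changed the UMI, mitochondrial, gate and count limits, the scaling (edgeR 4.0.16 TMM, mean CPM per barcode) and the barcodes kept; the shorter class lists, their combinations, enrichment in both libraries and the top-barcode removal were chosen after seeing the data. Scripts were tested on simulated data. Python 3.11.15, numpy 2.4.6, scipy 1.17.1, pandas 2.3.3, scanpy 1.11.5 and R 4.3.3 were used.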

Additional observations from a re-analysis of the deposited data

How the results depend on the processing

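Alternatives were run gene by gene for 79 of the genes named, not for all of them. Of these, 53 kept their sign in every alternative, and 8 that were past 2-fold turned direction in at least 1. The remaining sign changes are of genes within 2-fold, such as Csf3 (-0.68) and Il6 (-0.45) with other-type gates left out. With 1 library per group, leaving out a replicate was not possible, and the small number of barcodes limits every vessel class. No paired analysis was possible because each group is 1 library and the replicate numbers were given in accession order only. The causes of the changes below were not tested.

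The experimental share was 1.22% at a minimum of 2000 UMIs (difference 0.521 points). With a gate sum of at least 5 the shares were 0.444% and 0.409%, and with other-type gates left out 0.431% and 0.393%. Over all deposited barcodes the control share was 0.371% (difference 0.302). Counts of genes at least 2-fold higher and lower were 93 and 64 with other-type gates left out, 482 and 391 at a minimum of 20 UMIs, 67 and 85 at 100, and 113 and 103 with the full-list lymphatic members left out. They were 85 and 70 with other-type and short-list lymphatic members left out, 117 and 77 as mean CPM with other-type gates left out, and 140 were lower with a gate sum of at least 5. Against other barcodes, 342 genes were lower with a gate sum of at least 5, 329 with other-type gates left out and 385 as mean CPM, and at a minimum of 50 UMIs 293 were higher and 60 lower. With enrichment asked of both libraries, 2 enriched genes were lower. The venous class difference was 13.2 points after thinning and 14.5 with shorter lists.

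List medians moved as follows. With a gate sum of at least 5, capillary genes stood at -0.37 and cytokines at 0.21; without the highest Scrublet scores cytokines stood at 0.73. With other-type gates left out, capillary genes stood at -0.72, venous at 0.57, lymphatic at -0.41, cytokines at -0.094 and stress genes at -0.14. As mean CPM per barcode, pan-endothelial genes stood at -0.16, capillary at -0.40, venous at 0.14, lymphatic at -0.49, adhesion at 0.12, cytokines at 0.12, caveolae at -0.056, interferon at -0.076 and basement membrane at -0.13. With full-list lymphatic members left out, venous genes stood at 0.056, lymphatic at 1.39, adhesion at 0.21 and cytokines at -0.27, and with short-list ones left out lymphatic genes stood at 1.08. With other-type and short-list lymphatic members left out, pan-endothelial genes stood at -0.20, capillary at -0.94, venous at 0.49, lymphatic at 0.74, adhesion at 0.28, cytokines at -0.22, interferon at 0.034, basement membrane at -0.14 and stress at -0.20. As mean CPM with other-type gates left out, pan-endothelial genes stood at -0.047, capillary at -0.57, venous at 0.33, adhesion at 0.27, cytokines at 0.10, caveolae at 0.012 and stress at -0.16.

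Genes past 2-fold turned direction with other-type gates left out (Cxcl2 -1.28, Gm94 1.77, Igfbp3 0.58, Krt1 0.68, Pyy 0.51) and with full-list lymphatic members left out (Cxcl2 -0.32, Sele -0.12, Selp -0.43). With other-type and short-list lymphatic members left out, Igfbp3 stood at 0.43, Krt1 at 0.46 and Pyy at 0.10, and as mean CPM without other-type gates Gm94 stood at 4.05, Igfbp3 at 1.02, Krt77 at 1.1 and Pyy at 1.97.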
